A study of Mus musculus with 3 samples.

Results

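The genes followed here belong to the complement system and were measured in single macrophages of the mouse sciatic nerve: the 3 chains of C1q (C1qa, C1qb, C1qc), the complement components and factors C4b, C3, Cfb and Cfp, and the receptors C3ar1 and C5ar1. They were chosen by name as the complement genes of these cells, and all 9 were found among the 27998 genes of the tables. The samples were 3 single-cell libraries (10x Genomics v1) from C57BL/6 mice: steady state (uninjured sciatic nerve), 1 day after nerve crush and 5 days after nerve crush. Nerve crush cuts the axons and leaves the nerve sheath continuous. No agent, transgene or allele is named for any library, and the sources used here give no age, sex, number of animals or cell sort. Each time was 1 library with no replicate, so no test was possible, no p-value is given, and each comparison is between libraries.

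Complement is a cascade of plasma and tissue proteins that tags targets for uptake and calls in leukocytes. C1q, built from equal numbers of A, B and C chains, is the recognition unit of the classical pathway, and tissue macrophages are its main source. C4b is the mouse gene for complement C4, which the classical pathway cleaves next. C3 is the component on which all pathways converge, factor B (Cfb) forms the alternative-pathway convertase with it, and properdin (Cfp) stabilises that convertase. C3ar1 and C5ar1 encode the receptors for the released fragments C3a and C5a. In nerve, complement is known for the tagging of myelin debris that macrophages take up after injury.

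Levels are UMIs, counts of captured RNA molecules, summed over the cells of a library and scaled to the library's total (counts per 1000000, CPM). The cells used numbered 717 in steady state, 2781 at day 1 and 2045 at day 5, with totals of 1619301, 7921982 and 5480767 UMIs and medians of 2235, 2552 and 2470 UMIs per cell. They are all cells that passed the filters, other than 19 dendritic cell-like cells. All intervals are 95% intervals of the counting error alone. All 8 general macrophage markers were detected in every library, at a summed 6171 CPM in steady state, 6268 CPM at day 1 and 4926 CPM at day 5. Fibroblast markers summed to 118, 236 and 150 CPM in the same order and Schwann cell markers to 324, 59.8 and 70.1 CPM, with the defining Schwann cell gene Sox10 at 0 in all 3 libraries.

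**Figure D1:**
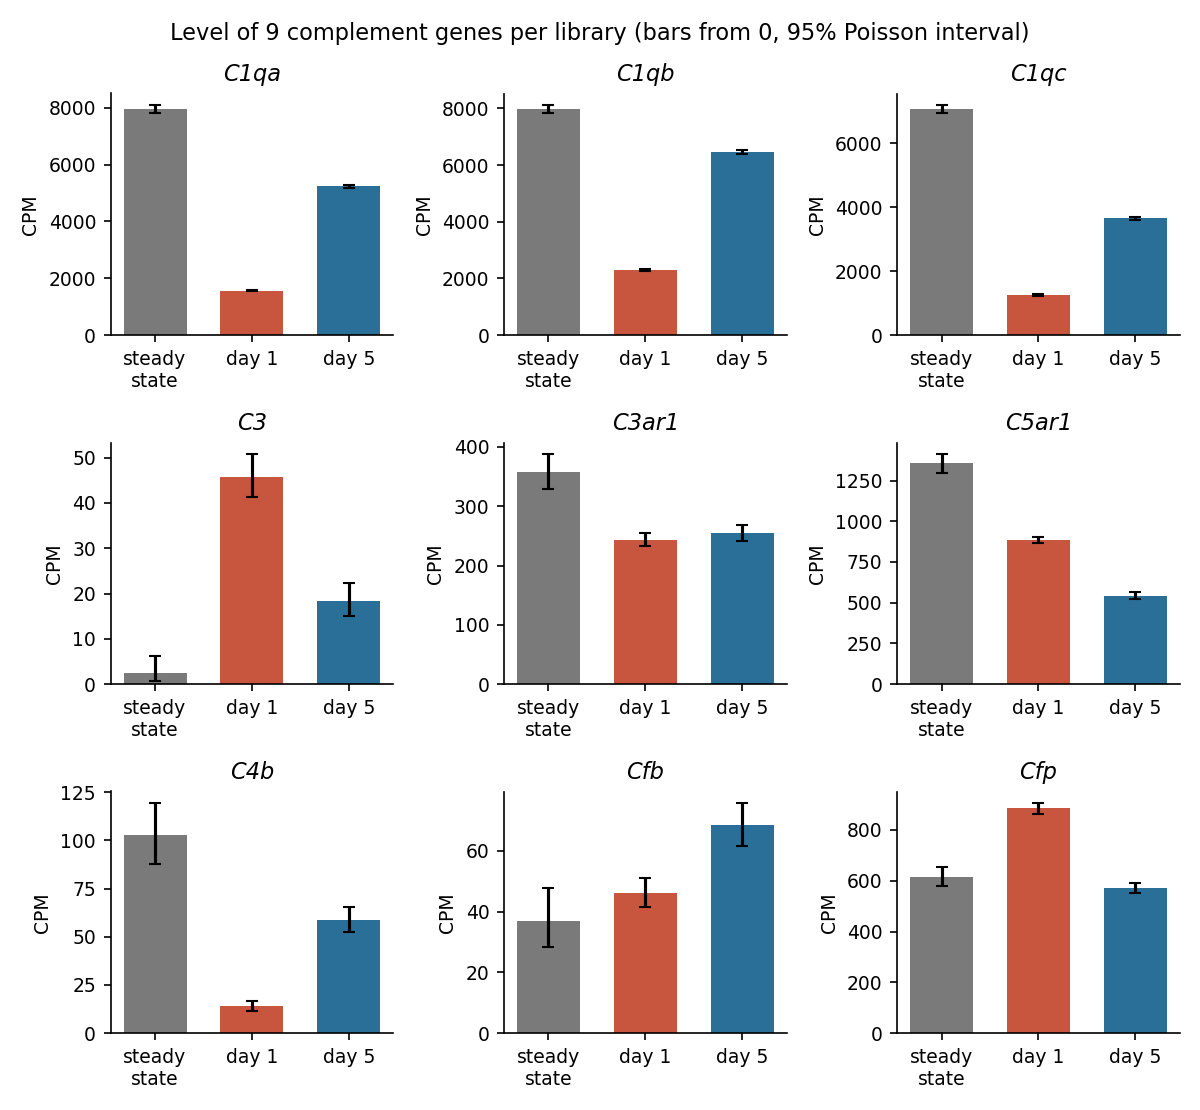
CPM of each gene in the steady-state, day 1 and day 5 libraries, with bars from 0 and 95% Poisson intervals. The C1q chains and C4b are lowest at day 1, C3 is highest at day 1, C5ar1 is lower at each later time and Cfb is highest at day 5.

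All 3 C1q chains were far lower in the day 1 library than in steady state and stood in between at day 5. C1qa was at 7954 CPM in steady state, 1566 CPM at day 1 and 5232 CPM at day 5. C1qb was at 7977, 2300 and 6458 CPM in the same order. C1qc was at 7071, 1249 and 3657 CPM. The order of the libraries was thus the same for each chain, and no 2 intervals overlapped. The summed C1q level was 5115 CPM at day 1, against 23002 CPM in steady state, 4.50-fold lower (interval 4.43 to 4.56). At day 5 it was 15346 CPM, 1.50-fold lower than in steady state (1.48 to 1.52) and 3.0-fold higher than at day 1 (2.96 to 3.04).

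The 3 chain genes lie side by side on mouse chromosome 4 (GRCm38.p6, the assembly named mm10), all on the minus strand and with no other protein-coding gene between them. C1qb is at chr4:136880126-136886200, C1qc at chr4:136889801-136892936 and C1qa at chr4:136895916-136898844. The gaps between them are 3.60 and 2.98 kb. Because the chains were low and high together, the 250 bases before the start sites that RefSeq's promoter table uses for C1qb and C1qc are shown (RefSeq, GRCm38.p6, minus strand, chr4:136886201-136886450 and chr4:136892915-136893164). Capitals mark GAGGAA on either strand, the core letters bound by the myeloid factor PU.1.
C1qb: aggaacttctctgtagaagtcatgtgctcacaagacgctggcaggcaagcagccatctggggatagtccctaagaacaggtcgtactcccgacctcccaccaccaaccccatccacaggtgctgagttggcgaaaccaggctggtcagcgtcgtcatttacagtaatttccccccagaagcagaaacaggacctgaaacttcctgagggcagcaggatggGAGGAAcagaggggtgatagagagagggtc
C1qc: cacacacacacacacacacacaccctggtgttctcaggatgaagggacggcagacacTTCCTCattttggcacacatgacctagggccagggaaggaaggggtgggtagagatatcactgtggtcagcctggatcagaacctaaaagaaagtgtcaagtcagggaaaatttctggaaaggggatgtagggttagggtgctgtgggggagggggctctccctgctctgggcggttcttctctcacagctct

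The C1qc start site lies inside the outer bound of the gene, so that 22 bases of its window overlap the gene as placed above. Each window held 1 match, ending 25 bases before that start site in C1qb and 188 bases before it, on the other strand, in C1qc. Of 32851 promoter windows of this length, 23.3% hold GAGGAA on either strand, so the match is a description of these letters and not a site. The Maf half-site letters TGCTGAC were not in either window on either strand and are in 3.81% of all windows. The windows of C3, C3ar1 and Cfp held neither motif. The C5ar1 window was searched but is left out here, since 202 of its bases lie inside the gene.

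C1q was also spread over the cells in another way in each library. To compare cells at 1 depth, each was thinned to 1000 UMIs, which left out 90 shallower cells in steady state, 297 at day 1 and 281 at day 5. The median thinned cell held 22 C1q UMIs in steady state (quartiles 15.5 and 29), 2 at day 1 (0 and 8) and 14 at day 5 (7 and 22). All 3 chains were seen in 96.7% of steady-state cells (94.9 to 97.9), 29.9% of day 1 cells (28.1 to 31.8) and 76.1% of day 5 cells (74.1 to 78.1). None was seen in 0.797%, 35.3% and 5.16% of cells. Day 1 cells ran from no C1q UMI to steady-state amounts, with 20.5% of them holding 10 or more, against 93.6% of steady-state cells. A C1qa UMI was seen in 98.1% of steady-state cells, 43.9% of day 1 cells and 84.5% of day 5 cells, and the shares for C1qb (98.2%, 54.3% and 90.4%) and C1qc (98.4%, 42.8% and 85.2%) had the same order. The 10% of cells richest in C1q held 41.4% of the thinned C1q UMIs at day 1, against 19.2% in steady state. At day 5 the richest 10% held 22.6%.

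**Figure D2:**
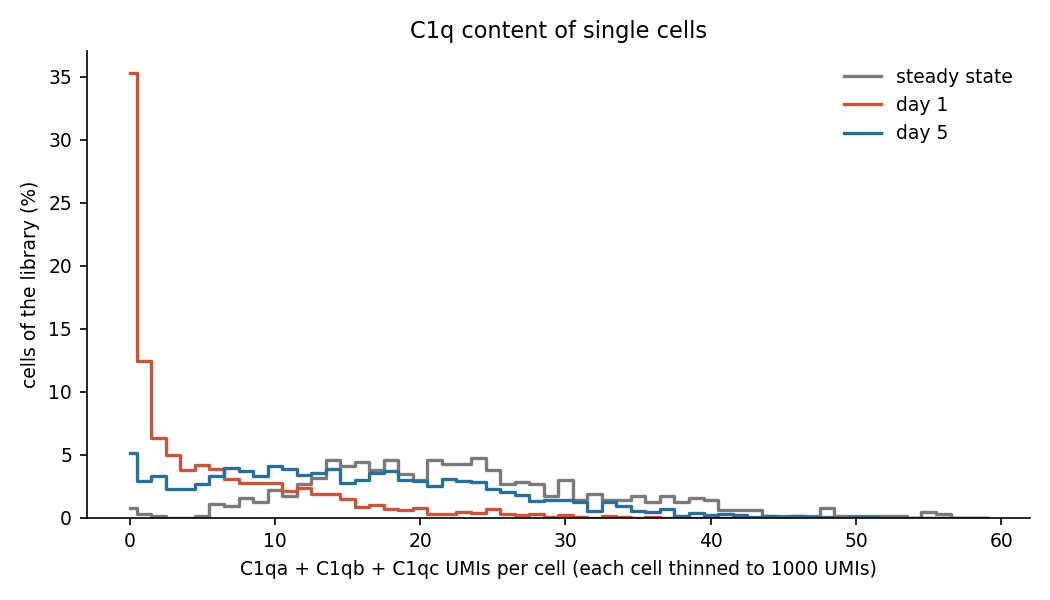
Share of cells of each library (vertical axis, percent) by their summed C1q UMIs after thinning to 1000 UMIs (horizontal axis, up to 59), with 1 line per library. Day 1 has a peak at 0 that holds 35.3% of its cells and a long tail, while steady state is centred on a median of 22.

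A C1q UMI in a cell can come from free RNA. The dendritic cell-like cells of the 3 libraries together, a type that makes little C1q, showed a C1q UMI in 7 of 18 thinned cells (38.9%, 17.3 to 64.3) at a median depth of 3577 UMIs before thinning, against 64.7% of day 1 cells (62.8 to 66.6). Without thinning, 99.4%, 74.6% and 97.9% of the cells of steady state, day 1 and day 5 had one. The 12 such cells of day 1 were at 195 CPM of summed C1q (8 UMIs, 84.0 to 383), and the day 1 cluster of at least 30 cells with the least was at 2069 CPM. The 6 such cells of day 5 were at 2205 CPM (43 UMIs, 1596 to 2970), and the day 5 cluster of at least 30 cells with the least was at 10119 CPM. Single C1q UMIs in day 1 cells are not read as expression.

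The ratio of the chains was another one after crush. In steady state C1qa, C1qb and C1qc held 34.6%, 34.7% and 30.7% of the C1q UMIs. At day 1 they held 30.6%, 45.0% and 24.4%, and at day 5 34.1%, 42.1% and 23.8%. There were 1.13 C1qb UMIs per C1qc UMI in steady state (1.10 to 1.16), 1.84 at day 1 (1.80 to 1.89) and 1.77 at day 5 (1.74 to 1.80). Capture can differ between genes, so the ratio within a library says nothing of protein chains. At both times after crush C1qb thus held a larger share than in steady state and C1qc a smaller one.

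The same composition was then read within clusters, which had been formed with the complement genes left out. Of the 16 cluster-by-library groups of at least 30 cells, the 2 of steady state had the lowest C1qb shares, 34.1% in cluster 3 and 35.6% in cluster 1. The highest was 52.4%, in day 1 cluster 5, which was led by interferon-induced genes such as Rsad2 and Ifit3. Day 1 cluster 10, led by Stard6, Ch25h and Ccl12, stood nearer to steady state at 37.3%. Within cluster 1, the epineurial macrophage-like cells, C1qb held 37.2% of C1q UMIs at day 5 (35.2 to 39.4), against 35.6% in steady state (34.8 to 36.4), and C1qc held 26.3% at day 5 (24.4 to 28.2), against 29.1% in steady state (28.4 to 29.9). Within cluster 3, C1qb held 37.8% at day 5 (35.3 to 40.2), against 34.1% in steady state (33.5 to 34.7), and C1qc held 26.8% at day 5 (24.6 to 29.1), against 31.6% in steady state (31.0 to 32.2). The C1qb intervals of cluster 1 overlapped, and the other 3 pairs did not. At day 1 the C1qb share was 50.1% (46.1 to 54.1) in thinned cells with 1 to 2 C1q UMIs, 47.2% (45.5 to 48.9) with 3 to 9 and 42.9% (41.8 to 43.9) with 10 or more. In steady-state cells with 10 or more it was 34.4%. The C1qc share at day 1 was 23.3%, 24.2% and 24.5% in the same order of C1q content, against 30.9% in steady-state cells with 10 or more. At day 5 the C1qb share had no such order, at 42.0%, 45.5% and 40.4%, and the C1qc share was 32.0%, 25.8% and 23.98%.

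**Figure D3:**
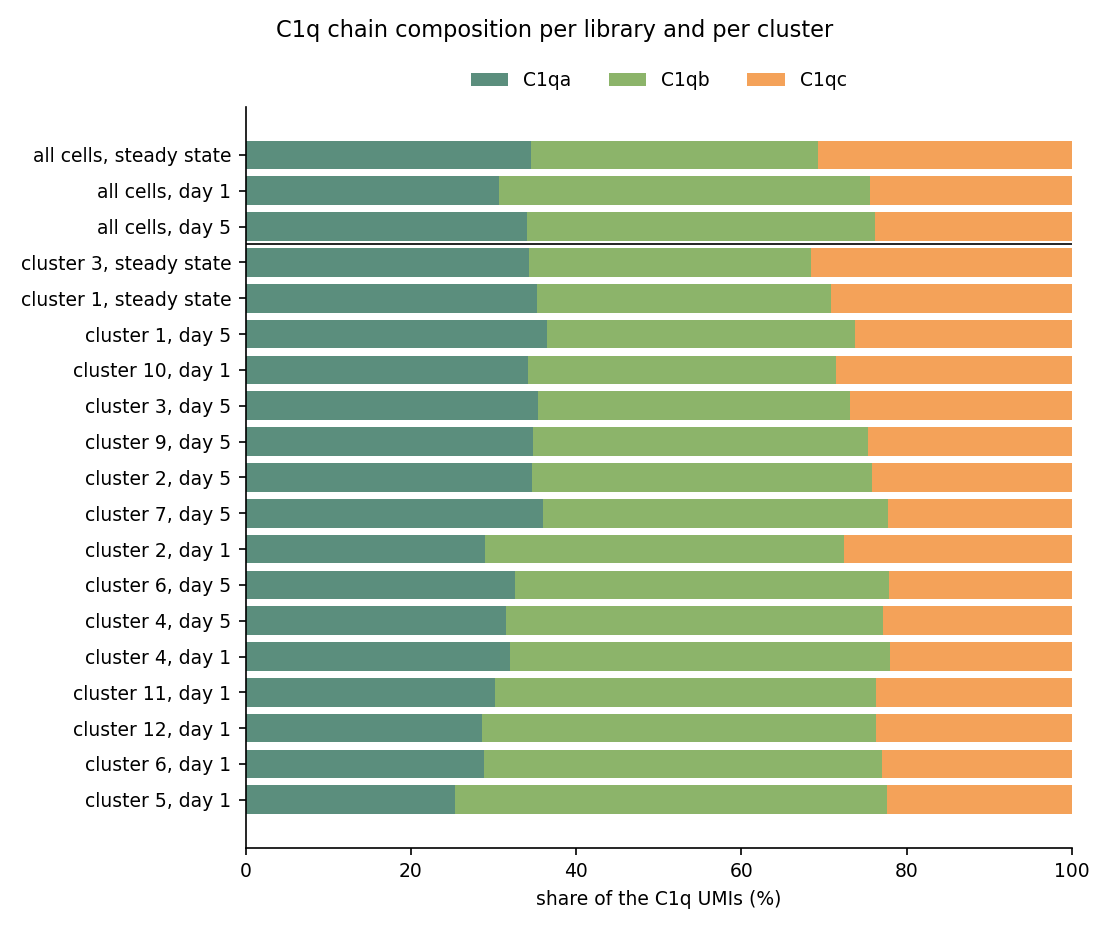
Share of the C1q UMIs (horizontal axis, percent) held by C1qa, C1qb and C1qc, for each library above the line and for the 16 cluster-by-library groups below it, ordered by C1qb share. The steady-state groups are at the top of the order, and day 1 cluster 5 is at the bottom with 52.4% C1qb.

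Among groups of at least 30 cells, summed C1q was highest in the epineurial macrophage-like cluster 1 in steady state (31390 CPM), in the unnamed cluster 10 at day 1 (16920 CPM) and again in cluster 1 at day 5 (24766 CPM). Cluster 1 was led by the lectin genes Cd209f, Cd209g and Cd209d, and epineurial macrophages are those of the outer nerve sheath. Cluster 10 held 4.28% of the day 1 cells used and 14.4% of the C1q UMIs of that library. The monocyte-like cluster 11, led by Chil3 and Lrg1, held 34.2% of the day 1 cells and 46.5% of the C1q UMIs, at 5056 CPM. Its cells were deep and held 3727264 of the 7921982 UMIs of all genes at day 1. Its C1q level was thus close to the 5115 CPM of the whole library. Clusters 4 (led by Pf4 and Ppbp) and 12 (Ctsk, Slpi and Cxcl3) had 3702 and 2069 CPM. All 3 were above the 195 CPM of the 12 dendritic cell-like cells of the same library.

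At day 5 the cluster with the largest share of the C1q UMIs was cluster 9, led by Ccl8, Gdf15 and Igf1, at 18628 CPM and with 44.8% of them. Cluster 6, led by MHC class II genes, was at 13404 CPM, and cluster 2, led by Olfml2b, at 12685 CPM with shallow cells (median 1217 UMIs). Clusters 2, 4 and 6 had at least 30 cells at both times after crush. In cluster 6 summed C1q was 13404 CPM at day 5, against 6750 CPM at day 1, 1.99-fold higher (1.91 to 2.06). In cluster 4 it was 10119 CPM at day 5, against 3702 CPM at day 1, 2.73-fold higher (2.49 to 3.0), and in cluster 2 it was 2.18-fold higher (2.0 to 2.38), with 72 cells at day 1. Day 5 was thus above day 1 within each of the clusters with at least 30 cells at both times. Clusters with fewer than 30 cells at 1 of the times were also higher at day 5, apart from cluster 3. Cluster 3 was at 24558 CPM at day 5 (23348 to 25814), against 26187 CPM at day 1 (23899 to 28635, 10 cells). These intervals overlap. Those of the monocyte-like cluster 11 overlap too. It was at 5211 CPM at day 5 (4686 to 5780, 19 cells), against 5056 CPM at day 1 (4984 to 5129). Against steady state, summed C1q at day 5 was 1.27-fold lower in cluster 1 and 1.19-fold higher (1.13 to 1.25) in cluster 3, led by Lilra5 and Hpgd.

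Marker lists also differed between the libraries, in both directions. All 13 epineurial markers were lower at day 1 than in steady state, summing to 733 CPM at day 1 and 15409 CPM in steady state. Of 5 endoneurial macrophage markers 4 were not higher at day 1 and 1 was, summing to 1430 CPM at day 1 and 2659 CPM in steady state. Of 9 monocyte markers 8 were higher at day 1, summing to 3805 CPM at day 1 and 369 CPM in steady state, where Vcan was at 0. The part of monocyte-like cells in the C1q difference was not tested. With the epineurial macrophage-like cells left out of every library, summed C1q was 3.97-fold lower at day 1 than in steady state and 1.32-fold lower at day 5.

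**Figure D4:**
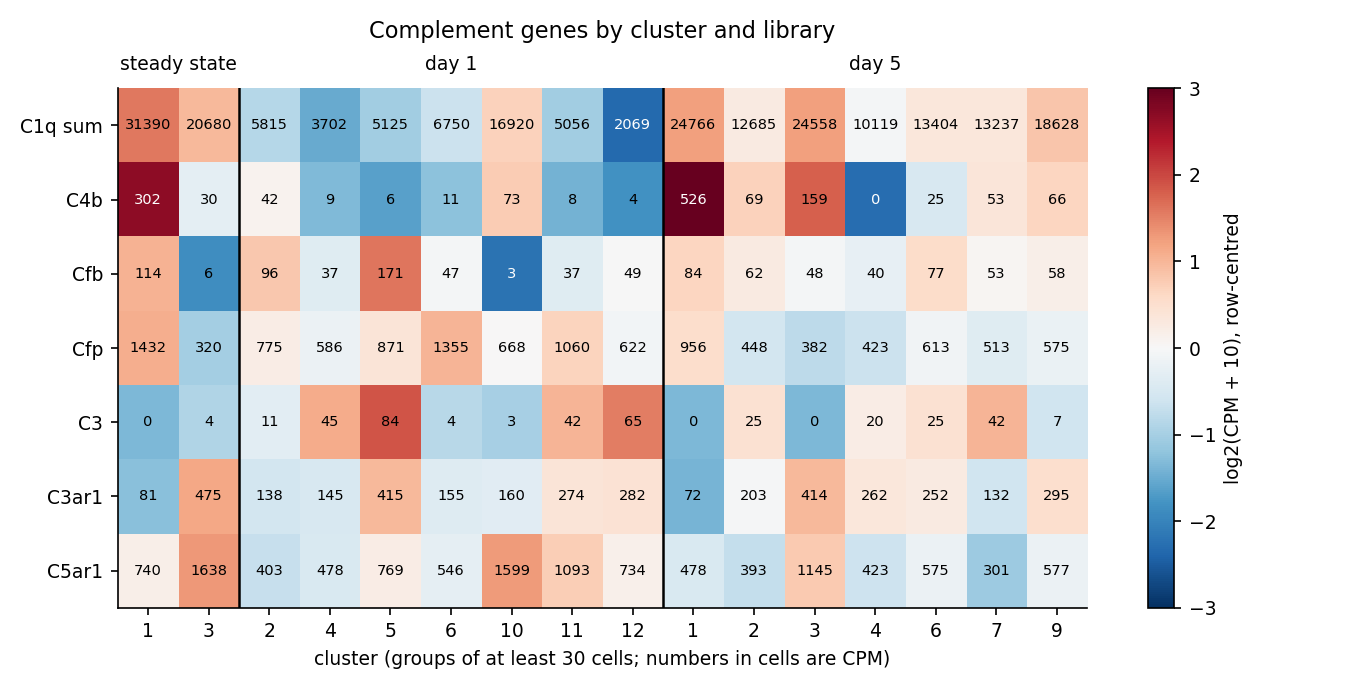
CPM of summed C1q and of the 6 other genes in each cluster with at least 30 cells, by library. Numbers are CPM and colours are log2(CPM + 10) centred on each row. C4b is highest in cluster 1 of day 5 and of steady state, and Cfb is highest in cluster 5 of day 1.

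C4b resembled C1q across the libraries at a much lower level, and most of its steady-state UMIs lay in the epineurial macrophage-like cells. It was at 103 CPM in steady state (166 UMIs), 14.0 CPM at day 1 (111 UMIs) and 58.6 CPM at day 5 (321 UMIs). Day 1 was 7.32-fold below steady state (5.72 to 9.39), and day 5 was 4.18-fold above day 1 (3.36 to 5.23). In steady state the epineurial macrophage-like cells were at 302 CPM and the other cells at 32.5 CPM, 9.29-fold higher (6.44 to 13.7), and these 194 of 717 cells held 76.5% of the C4b UMIs. Leaving them out turned the day 5 comparison round, to 51.3 CPM at day 5 against 32.5 CPM in steady state, 1.58-fold higher (1.13 to 2.27). Within cluster 1, C4b was at 526 CPM at day 5 (44 UMIs), against 302 CPM in steady state, 1.74-fold higher (1.21 to 2.47). A C4b UMI was seen in 7.66% of thinned steady-state cells, 1.25% of day 1 cells and 5.73% of day 5 cells (14.4%, 2.91% and 10.2% without thinning). Of 18 thinned dendritic cell-like cells 0 had one (interval 0 to 18.5%), which covers these shares and so gives no background level. C4b lies at chr17:34728139-34743902. The near-identical neighbour C4a was not used here, so reads that fit both genes leave C4b uncertain.

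For the alternative-pathway genes Cfb and Cfp, the comparison of libraries depended on the epineurial macrophage-like cells. Cfb was at 37.1 CPM in steady state (60 UMIs), 45.9 CPM at day 1 (364 UMIs) and 68.4 CPM at day 5 (375 UMIs). Day 1 was 1.24-fold above steady state, with an interval of 0.942 to 1.66 that includes no difference, and day 5 was 1.85-fold above it (1.40 to 2.47). In steady state 48 of the 60 UMIs lay in the epineurial macrophage-like cells, at 114 CPM against 10.0 CPM in the other cells, 11.4-fold higher (5.97 to 23.6). Without those cells, Cfb was at 45.4 CPM at day 1 against 10.0 CPM in steady state, 4.54-fold higher (2.56 to 8.86), and at 68.2 CPM at day 5, 6.81-fold higher (3.85 to 13.3). The steady-state side of both ratios rests on 12 UMIs. Leaving out the cells that held most of the steady-state UMIs raises both ratios by construction. At day 5 the epineurial macrophage-like cells were at 83.6 CPM of Cfb (7 UMIs) and the other cells at 68.2 CPM, a ratio of 1.23 (0.490 to 2.55). Within cluster 1, the Cfb ratio of day 5 over steady state was 0.732 (0.280 to 1.63), which includes 1. Within cluster 3 it was 7.44 (1.24 to 32.6), from 3 UMIs at day 5 and 7 in steady state.

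Among day 1 clusters of at least 30 cells, Cfb was highest in the interferon-gene cluster 5, at 171 CPM, and lowest in cluster 10, at 2.90 CPM (1 UMI). A Cfb UMI was seen in 2.71%, 4.43% and 5.10% of thinned cells of steady state, day 1 and day 5 (6.28%, 9.03% and 12.2% without thinning). Of 18 thinned dendritic cell-like cells 0 had one (interval 0 to 18.5%), which covers these shares and so gives no background level. Cfb (chr17:34856374-34862514) and C4b lie 112 kb apart with 5 protein-coding genes between them. The gene C2, another complement protease, lies 87 bases from Cfb. It was at 15.4 CPM in the uninjured library, where Cfb was lowest, and after crush at 0.757 CPM (day 1) and 0.365 CPM (day 5). GENCODE also lists a gene on the same strand that overlaps Cfb, Gm20547, and how reads of the overlap were assigned is unknown, so that Cfb is uncertain to that extent.

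Cfp (chrX:20925454-20931555), like C3, was highest at day 1. It was at 616 CPM in steady state, 885 CPM at day 1 and 570 CPM at day 5, so that day 1 was 1.44-fold above steady state (1.34 to 1.54). Epineurial macrophage-like cells of steady state were at 1432 CPM, against 329 CPM in the other cells, 4.35-fold higher (3.82 to 4.95). Leaving them out raised the day 1 ratio to 2.69 (2.43 to 2.98) and turned the day 5 comparison round. The remaining cells were at 564 CPM at day 5 and 329 CPM in steady state, 1.71-fold higher at day 5 (1.54 to 1.91). In cluster 1 itself Cfp was lower at day 5, with day 5 over steady state at 0.667 (0.522 to 0.844). In cluster 3 that value was 1.19, and its interval of 0.755 to 1.81 includes 1. The rise among the remaining cells was thus not seen within cluster 1 and not resolved within cluster 3. A Cfp UMI was seen in 30.5% of thinned steady-state cells, 47.9% of day 1 cells and 34.9% of day 5 cells, and in 43.8%, 66.6% and 53.5% without thinning. Dendritic cell-like cells had one in 5 of 18 thinned cells (27.8%, 9.69 to 53.5), and 43 of their 46 UMIs lay in the 12 cells of day 1, at 1046 CPM (757 to 1409). The 6 cells of day 5 were at 51.3 CPM (1 UMI). At day 1 these cells therefore give no background level for Cfp.

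**Figure D5:**
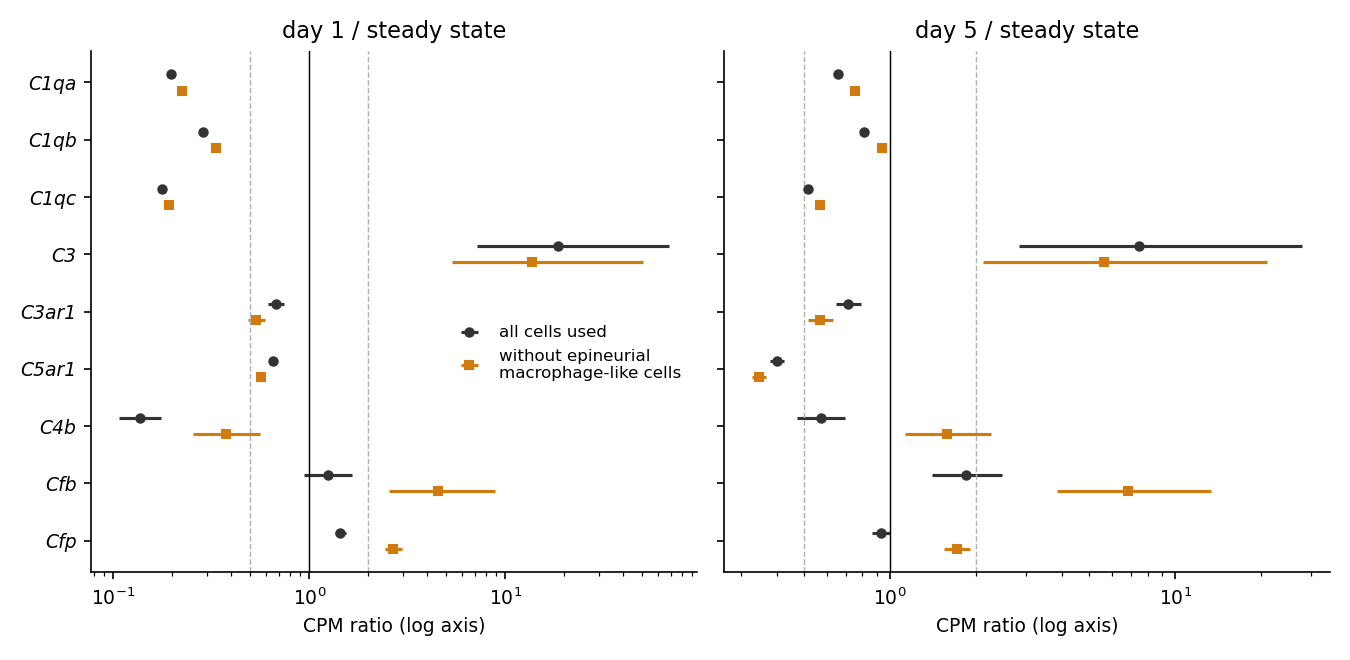
CPM ratio of day 1 over steady state (left) and day 5 over steady state (right) on a log axis, with 95% intervals, for all cells used (circles) and without the epineurial macrophage-like cells (squares); dashed lines mark 2-fold. The squares of Cfb and Cfp lie to the right of the circles at both times, and C4b crosses 1 at day 5.

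C3 (chr17:57203967-57228136) had few UMIs in every library and the most at day 1. It had 4 UMIs in steady state (2.47 CPM, 0.673 to 6.32), in 0.279% of cells. At day 1 it had 363 UMIs (45.8 CPM) in 8.59% of cells and 101 UMIs at day 5 (18.4 CPM) in 3.03% of cells. Day 1 was 18.5-fold above steady state (7.18 to 68.4), an estimate that rests on the 4 steady-state UMIs. Of these, 3 lay in 1 cell, which the interval does not take into account. After thinning, 0.159% of steady-state cells, 4.39% of day 1 cells and 1.76% of day 5 cells had a C3 UMI. Of 18 dendritic cell-like cells 0 had one (interval 0 to 18.5%). That interval covers these shares, so these cells cannot tell them from background. Clusters 5 (84.2 CPM) and 12 (64.7 CPM) were the highest at day 1 among those with at least 30 cells, and cluster 10 was at 2.90 CPM. Within cluster 6, C3 was 5.87-fold higher at day 5 than at day 1 (1.54 to 49.8), the reverse of the libraries. That ratio rests on 49 UMIs at day 5 and 2 at day 1. In clusters 2 and 4 the interval of the same ratio included 1. At day 1, C3 was at 25.5 CPM (13.6 to 43.6) in thinned cells with 10 or more C1q UMIs, against 71.8 CPM (55.2 to 91.9) in cells with none. At day 5 it was at 19.4 CPM (12.3 to 29.2) in cells with 10 or more and 22.0 CPM (2.66 to 79.4) in cells with none, with overlapping intervals. Fibroblasts also make C3. A finer clustering set apart 9 fibroblast-like cells, which held 13 of the day 1 and 8 of the day 5 UMIs of C3, and without them no ratio between libraries left its interval.

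The 2 receptors were lower after crush and unlike each other at day 5. C3ar1 (chr6:122847140-122856157) was at 358 CPM in steady state, 243 CPM at day 1 and 255 CPM at day 5. Day 5 was 1.05-fold of day 1 with an interval of 0.980 to 1.13 that includes 1. With median-of-ratios scaling that ratio was 1.09 (1.01 to 1.17), which does not include 1. By CPM within cluster 6 it was 1.62 (1.27 to 2.11), and in clusters 2 and 4 the interval included 1. C3ar1 at day 5 over steady state was 0.886 (0.304 to 2.14) in cluster 1 and 0.870 (0.563 to 1.29) in cluster 3. Both of these intervals include 1. C5ar1 (chr7:16246743-16259540) was at 1355 CPM in steady state, 885 CPM at day 1 and 543 CPM at day 5, with each later library below the one before. Its day 5 level was 2.49-fold below steady state (2.36 to 2.64). Within cluster 2, C5ar1 at day 5 over day 1 was 0.975 (0.697 to 1.40). In cluster 4 that ratio was 0.885 (0.544 to 1.36), and in cluster 6 1.05 (0.919 to 1.21). These intervals include 1, while that of the whole libraries, 0.614 (0.588 to 0.641), does not. C5ar1 at day 5 over steady state was 0.646 (0.453 to 0.900) in cluster 1 and 0.699 (0.545 to 0.885) in cluster 3. At day 5 a C5ar1 UMI was seen in 34.0% of thinned cells, against 54.5% in steady state, while C3ar1 was seen in 20.4% and 24.2%. Without thinning the shares at day 5 and in steady state were 52.9% and 68.2% for C5ar1 and 34.9% and 34.2% for C3ar1. Of 18 thinned dendritic cell-like cells, 0 had a C5ar1 UMI (interval 0 to 18.5%) and 2 a C3ar1 UMI (11.1%, 1.38 to 34.7).

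Both receptor genes were low in the epineurial macrophage-like cells of steady state, the reverse of C4b, Cfb and Cfp. C3ar1 was at 80.9 CPM there and 455 CPM in the other cells, 5.62-fold lower (3.97 to 8.20), and C5ar1 was at 739.9 CPM there and 1570.5 CPM in the other cells, 2.12-fold lower (1.88 to 2.40). Among groups of at least 30 cells, C5ar1 after crush was highest in day 1 cluster 10 (1599 CPM), close to the 1638 CPM of steady-state cluster 3, and the monocyte-like day 1 cluster 11 was at 1093 CPM. Among the same groups, C3ar1 was highest in steady-state cluster 3 (475 CPM), then in day 1 cluster 5 (415 CPM) and day 5 cluster 3 (414 CPM). At day 1, C3ar1 did not separate cells by C1q content: it was at 210 CPM (172 to 254) in thinned cells with 10 or more C1q UMIs and 219 CPM (189 to 252) in cells with none.

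Counted against all genes, 4 of the 9 (C1qa, C1qb, C1qc and C4b) were at least 2-fold lower at day 1 than in steady state, where 13.0% of 6389 genes were, and 1 (C3) was at least 2-fold higher, where 15.3% were. All 9 passed the filter of a mean of 10 CPM over the libraries compared. C3, at 2.47 CPM in steady state, passed it in the comparisons with steady state only through its level after crush. Its means there were 24.1 CPM with day 1 and 10.4 CPM with day 5. The median log2 ratio of the 9 genes at day 1 over steady state was -0.61, against 0.11 over all genes. At day 5, 1 gene (C5ar1) was at least 2-fold lower than in steady state and 1 (C3) higher, where 9.65% and 8.34% of 6308 genes were, and the median was -0.49 against 0.01. With median-of-ratios scaling C1qc was also past 2-fold lower there, at a ratio of 0.4997. Between day 5 and day 1, C1qa, C1qb, C1qc and C4b were at least 2-fold higher and C3 lower, where 3.86% and 4.87% of 6216 genes were. With the whole interval past 2-fold, the members called at day 1 over steady state stayed 4 lower and 1 higher, where 7.33% and 7.36% of genes were. At day 5 over steady state they stayed 1 lower and 1 higher, where 4.55% and 3.14% were. At day 5 over day 1 they were 4 higher, where 2.08% were, and 0 lower, where 2.49% were. The C1q genes make 1 protein and are not independent.

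A wider list of 44 complement genes, 43 of them measured, was read in the same way. Of the 43, 10 passed the filter in the comparisons with steady state and 9 between day 5 and day 1. Of all 27998 genes, 6389 passed it for day 1 and steady state, 6308 for day 5 and steady state and 6216 for day 5 and day 1. At day 1, 4 of 10 were at least 2-fold higher than in steady state, where 15.3% of 6389 genes were. They were Itgam, the alpha chain of complement receptor 3 (245 CPM at day 1 against 51.3 CPM in steady state, 4.78-fold), its partner chain Itgb2 (2.40-fold), Lrp1, an endocytic receptor (2.40-fold), and Calr, calreticulin (2.11-fold). With the whole interval past 2-fold this count was 3, without Calr, where 7.36% of genes were. At least 2-fold lower were 3 genes, where 13.0% of all genes were. Among them were Fcna, a ficolin of the lectin pathway (14.4 CPM at day 1 against 436 CPM in steady state), and Colec12, a scavenger collectin (3.66 CPM at day 1 against 36.4 CPM in steady state). Colec12 passed the filter only through its steady-state level. At day 5 the count of genes at least 2-fold lower than in steady state was also 3, with Fcna at 78.5 CPM and Colec12 at 4.38 CPM. The 1 gene higher was Itgam, at 2.68-fold. Over all genes, 9.65% were lower and 8.34% higher there. Between day 5 and day 1, Fcna alone was at least 2-fold higher (5.45-fold) and no gene of the list was at least 2-fold lower. Over all genes, 3.86% were higher and 4.87% lower there. The list's median log2 ratio was 0.64 at day 1 over steady state, 0.24 at day 5 over steady state and -0.26 at day 5 over day 1, against 0.11, 0.01 and -0.11 over all genes. Terminal components were at or near 0: Hc (C5), C7, C8a and C8b had no UMI in any library, and the classical protease genes C1rb and C1s2 none. C6 had 8 UMIs in steady state, 2 at day 1 and 0 at day 5. C1ra was at 3.79 to 4.56 CPM in the 3 libraries.

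The genes most like each of these in pattern were ranked by Pearson r of log2(CPM + 10) over the 16 cluster-by-library groups, among 2112 genes of at least 50 CPM. These groups share libraries and differ in depth, so r is a description. For summed C1q they were Trf, transferrin (r = 0.94), Fcrls (0.93), Smagp (0.92), Tmem176b (0.92) and the tetraspanin Cd81 (0.90). C4b was closest to Fcna (0.95), Igfbp4 (0.90) and Fxyd2 (0.90), and Cfb to Ly6e (0.89), Sat1 (0.84) and B2m (0.84). C3 was closest to Lgals3 (0.82), C3ar1 to Ppt1 (0.87), C5ar1 to the chemokine gene Ccl2 (0.87) and Cfp to Phf5a (0.78). Fcna is also on the list of epineurial markers. No gene of the wider list other than Fcna was among these nearest patterns.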

How the data were processed

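Per the submitters' processing notes, the authors used Cell Ranger 2.0.2 and mm10. The deposited tables hold UMI counts per gene and barcode, not normalized. The sources used here do not say how free RNA was treated. Barcodes with at least 200 genes and at most 10% mitochondrial UMIs were kept. Scrublet (scanpy 1.11.5) called 18 barcodes (0.323%), too few to rely on, so doublets remain possible; 5562 of 5586 barcodes stayed. Libraries shared 2, 3 and 11 barcodes. Cells were clustered together without integration (Leiden, resolution 1, python-igraph 0.11.9, 2000 variable genes without the complement lists, 30 components, 15 neighbours). A cluster was named from listed markers when at least 3 were 2-fold higher, at least 2 of them were among its 10 leading genes and no other class had as many there. Fibroblast-like cells were named the same way at resolution 2. That rule was chosen after seeing the data. Ratios have exact conditional binomial intervals, CPM exact Poisson and shares Clopper-Pearson intervals; code was checked on simulated data. Members and lists were chosen with earlier results of these data known. Wider-list genes are named by the largest ratios at or past 2-fold, up to 6 per direction (some items are not reported here), and similar genes by the highest r. Genes named outside that rule (terminal components, the C1r and C1s genes, C2) were chosen after their values were seen. A pooled deposited table held 97.5% of the UMIs and was not used in comparisons. Sequences and positions are from RefSeq, strands and neighbours from GENCODE M21.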

Additional observations from a re-analysis of the deposited data

How the results depend on the processing

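Summed C1q kept its direction in all 3 comparisons under every alternative run. With median-of-ratios scaling the ratios of day 1 over steady state, day 5 over steady state and day 5 over day 1 were 0.208, 0.645 and 3.11, and with the mean of per-cell CPM they were 0.213, 0.649 and 3.05. Without the 5% of cells with the most UMIs the ratio of day 5 over day 1 was 3.04. Without the epineurial macrophage-like cluster, chosen after seeing the data, the ratios over steady state were 0.252 at day 1 and 0.758 at day 5. That setting reversed C4b and Cfp at day 5 over steady state, to 1.58 and 1.71. By its construction it removes the cells that held most of the steady-state UMIs of C4b, Cfp and Cfb. Leaving out the fibroblast-like cells or barcodes shared between libraries, both added after seeing the data, moved no ratio beyond its interval. Of 30 ratios, 14 left their interval with median-of-ratios scaling and 13 with the mean of per-cell CPM, and none reversed. At day 1 over steady state these settings gave 1.34 and 1.29 for Cfp and 0.610 and 0.577 for C5ar1. C4b at day 5 over steady state was 0.710 with the mean of per-cell CPM.

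Counts of genes at least 2-fold higher and lower moved with the filter and the call rule. At day 1 over steady state they were 979 and 829, and 3958 and 2694 with no filter, 401 and 249 at a mean of 50 CPM, and 470 and 468 with the whole interval past 2-fold. At day 5 over steady state they were 526 and 609, and 3306 and 2116, 147 and 179, and 198 and 287 in the same order. At day 5 over day 1 they were 240 and 303, and 2278 and 2145, 73 and 124, and 129 and 155. With median-of-ratios scaling they were 820 and 963, 472 and 675, and 274 and 268 in the order of the comparisons, so that the larger of the pair turned at day 1 over steady state and at day 5 over day 1. By construction the filter at 50 CPM tests fewer genes. Under the interval rule, C3 was no longer 2-fold lower at day 5 than at day 1. Of 30 shares of cells, 28 left their interval with thinning to 500 UMIs, 24 with 2000 and 25 without thinning. The day 1 group richest in C1q was at 15660 to 18080 CPM under other clusterings. Replacing the sample tables by the pooled table was not run. No paired analysis was possible because each time was 1 library.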
